A study of Mus musculus with 6 samples.

Results

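Expression of 9 genes of the phagocyte NADPH oxidase and the pentose phosphate pathway was examined in mouse acute myeloid leukemia cells treated with DS-5272, a small molecule that activates p53 by inhibiting MDM2. The genes were chosen by name. The 5 oxidase genes were Cybb, Cyba, Ncf1, Ncf4 and Rac2, and the 4 enzyme genes were G6pdx, Pgd, Tkt and Taldo1. All 9 were found among the 26082 gene names of the expression table, and all 9 passed the filter on low values, which left 11130 genes whose FPKM averaged 1 or more. FPKM divides the fragments of a gene by transcript length and by the size of the library, so levels of different genes can be compared. The entry for Tkt was joined with that of Mir3076, a microRNA gene of 60 bases, and the other 8 genes had a row of their own.

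The cells were C57BL/6J bone marrow progenitors transduced with MLL-AF9, a fusion oncogene delivered by a retrovirus that also carries GFP. They were transplanted into recipient mice and sorted from the bone marrow of the leukemic recipients. RNA was sequenced from 3 vehicle-treated and 3 DS-5272-treated samples, taken 24 h after an oral dose of vehicle or of 80 mg/kg DS-5272. The model is thus an oncogene-driven leukemia at 1 dose and 1 time, and no sample without MLL-AF9 was part of the comparison. FPKM values summed to between 445316 and 501241 in the vehicle samples and to between 499229 and 661184 in the DS-5272 samples, and read counts were not used here because the table holds FPKM. The steps between the lowest values gave an approximate depth of 0.539 to 0.885 relative to vehicle replicate 1 in the other samples, with the lowest values in the DS-5272 group. Of 8 myeloid leukemia cell markers used, 5 rose with DS-5272 (Ptprc, Itgam, Spi1, Csf1r and Lyz2). The 2 that fell were the peroxidase gene Mpo (log2 fold change -5.07) and the progenitor receptor Kit (-1.96). In the same test 24.2% of all genes were called higher and 22.0% lower. Meis1, a gene of the MLL-AF9 program, was at 66.06 to 109.9 FPKM over all samples and did not pass. Hoxa9, listed in a joined entry, was left out of these markers.

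The phagocyte NADPH oxidase moves electrons from cytosolic NADPH across a membrane to oxygen and so makes superoxide. Its catalytic core is a flavocytochrome of gp91phox, encoded by Cybb, and p22phox, encoded by Cyba. At rest the cytosolic subunits p47phox (Ncf1) and p40phox (Ncf4) and the GTPase Rac2 are apart from it, and they gather at the membrane on activation. Neutrophils, monocytes and macrophages are the main cells that use this enzyme, and myeloid precursors gain it as they mature. The pentose phosphate pathway is a main source of the NADPH that it consumes. Glucose-6-phosphate dehydrogenase (G6pdx) and 6-phosphogluconate dehydrogenase (Pgd) make NADPH in the oxidative branch. Transketolase (Tkt) and transaldolase (Taldo1) exchange carbon between pentose phosphates and glycolytic intermediates in the non-oxidative branch and make no NADPH. RNA levels do not measure oxidase activity, superoxide or NADPH. The authors reported that reactive oxygen species were not increased by DS-5272 in these leukemia cells.

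By the GENCODE annotation of GRCm38, Cybb lies at chrX:9435252-9487771 and G6pdx at chrX:74409483-74429194, both on the minus strand of the X chromosome. Cyba lies at chr8:122424776-122432930, Ncf1 at chr5:134220053-134229625, Rac2 at chr15:78559167-78572783 and Pgd at chr4:149149991-149166771, all on the minus strand. Ncf4 lies at chr15:78244801-78262580, Tkt at chr14:30548359-30574720 and Taldo1 at chr7:141392199-141402968, on the plus strand. The values are for whole genes.

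All 5 oxidase genes and 3 of the 4 enzyme genes were higher with DS-5272, and Tkt did not pass the test. In the same test 24.2% of the 11130 genes were called higher and 22.0% were called lower. The groups did not overlap for the 8 genes that rose. Over all genes tested, 32.1% were higher with no overlap and 29.7% were lower with no overlap. The median log2 fold change was 1.16 over the oxidase genes and 0.77 over the enzymes, against 0.04 over all genes tested. Fold changes are on the scale of log2(FPKM + 1), and adjusted p-values are from limma with Benjamini-Hochberg adjustment over all genes tested. The samples were taken from leukemic mice, but the labels do not say that each came from a different animal, so the p-values measure the spread between these samples.

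**Figure D1:**
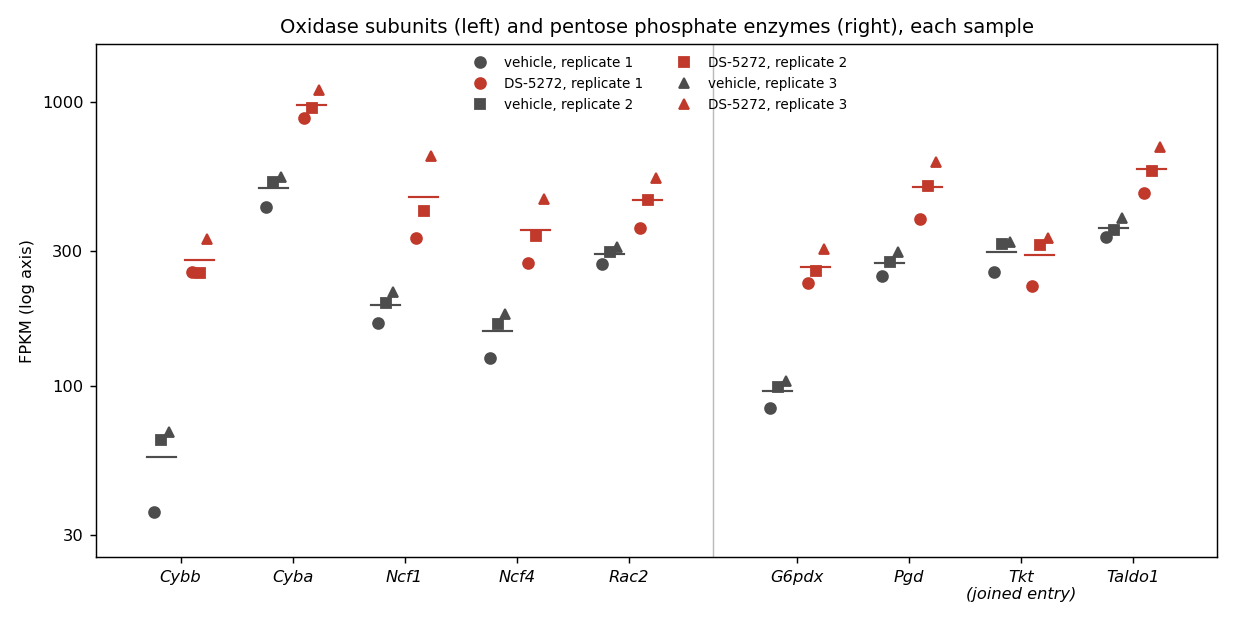
FPKM (log axis) of the 9 genes in each of the 6 samples, with vehicle in gray and DS-5272 in red, the replicate number given by the symbol, and short lines at the group means. The red points lie above all gray points for every gene except Tkt, whose groups overlap.

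The markers of other cell types were measured in the same samples, and their part in the results was not tested. In the main test, 24.2% of all genes were called higher and 22.0% lower. Of the mature neutrophil markers, 7 of 9 rose and 0 fell, with a median log2 fold change of 3.36. Their summed level was 416 to 2490 FPKM with vehicle and 4930 to 21000 FPKM with DS-5272. The largest rises were those of Mmp9 (4.32), S100a9 (4.08) and S100a8 (3.69), and none of the 9 was at 0 in any sample. Of the resident macrophage markers, 5 of 9 tested rose, with summed levels of 79.1 to 141 FPKM and 222 to 663 FPKM, led by Siglec1 (3.38), C1qb (2.99) and C1qc (2.90). Marco was at 0 in all vehicle samples. The myeloid markers Lyz2 (2.85) and Csf1r (1.91) rose, Itgam, a surface integrin of myeloid cells, went from 139.7 to 190.4 FPKM with vehicle to 530.2 to 1087 FPKM with DS-5272. With the replicate number as a block, all 9 neutrophil markers were called higher, as were 30.3% of all genes. S100a9 did not pass without DS-5272 replicate 2 or 3 (adjusted p = 0.0612 and 0.0658 by limma). In bulk samples such as these, a change in the share of cells of a type and a change in RNA per cell cannot be told apart.

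DS-5272 replicate 1 stood apart, with C1qb at 58.18 FPKM against 14.07 and 15.64 FPKM in the other two treated samples and Hba-a1 at 84.18 FPKM against 14.74 and 7.066 FPKM. Without this sample the log2 fold changes were 2.38 for Cybb, 1.04 for Cyba, 1.42 for Ncf1, 1.34 for Ncf4, 0.76 for Rac2, 1.53 for G6pdx, 1.04 for Pgd and 0.80 for Taldo1, and that of Tkt was 0.13 (adjusted p = 0.49 by limma). For all of the 8 genes but Cybb, this sample was the lowest of the treated group, so those differences had to grow. Whether other cells in it took part in the rise was not tested. With DS-5272 replicate 3 left out instead, all 8 differences were smaller than with all samples. They were 2.19 for Cybb, 0.88 for Cyba, 0.95 for Ncf1 and 0.96 for Ncf4. Those of Rac2, G6pdx, Pgd and Taldo1 were 0.47, 1.33, 0.71 and 0.54. The summed T cell markers did not exceed 2.56 FPKM with vehicle and were at 1.65 to 4.86 FPKM with DS-5272, and the summed B cell markers at 4.29 to 5.02 and 3.39 to 4.29 FPKM. The NK cell sum was low but higher with DS-5272 without overlap, at 0.655 to 1.47 FPKM with vehicle and 2.41 to 4.24 FPKM with DS-5272. Of all genes tested, 32.1% were higher with no overlap. Gzma was at 0.1839 to 0.5714 FPKM with vehicle and 1.049 to 1.954 FPKM with DS-5272. The groups of Klrb1c overlapped, at 0.1732 to 0.1877 FPKM with vehicle and 0.1463 to 0.188 FPKM with DS-5272. None of the NK cell markers reached the filter on low values. Of the T and B cell markers, only Lck and Cd79b reached this filter. Below it, Cd3e, Cd4, Cd8a and Cd8b1 were higher with DS-5272 without overlap, and the others overlapped. Cd4 was at 3.276 FPKM in DS-5272 replicate 1 and at 0.2143 and 0.314 FPKM in the other treated samples. Cd79b did not pass (log2 fold change -0.27), and Lck was called lower (-0.60). It was not called when any 1 sample except DS-5272 replicate 1 was left out (adjusted p = 0.0625 to 0.107 by limma). The erythroid sum went from 2.06 to 4.45 FPKM with vehicle to 12.4 to 146 FPKM with DS-5272. This sum leaves out Hbb-bs, which was listed in a joined entry, and Hbb-bt, which had no entry. Hba-a1 and Hba-a2 (3.31 and 3.30) were called higher, but neither passed without vehicle replicate 2 (adjusted p = 0.0567 and 0.0529 by limma), nor Hba-a1 without vehicle replicate 3 (0.055).

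Cybb, the catalytic subunit, showed the largest difference of the 9 genes. Its level was 36.2, 64.5 and 68.9 FPKM in the vehicle samples and 252.6, 250.5 and 328.9 FPKM in the DS-5272 samples. The lowest DS-5272 sample was 3.64-fold above the highest vehicle sample, and vehicle replicate 1 was the lowest of all. The mean went from 56.5 ± 17.7 FPKM to 277.3 ± 44.7 FPKM (SD, n = 3 in each group), a 4.91-fold ratio of means. The log2 fold change was 2.32 (SE 0.26, 95% confidence interval 1.70 to 2.93, adjusted p = 0.002 by limma), which was at percentile 98.5 of all genes tested. By mean FPKM, Cybb moved from rank 1590 among all entries with vehicle to rank 326 with DS-5272.

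Cyba encodes the partner that stabilizes gp91phox in the membrane, and its transcript was the most abundant of the 9 in each of the 6 samples. It was at 427.8, 522.5 and 546.5 FPKM with vehicle and at 881.4, 953.0 and 1100 FPKM with DS-5272. The groups were well apart, although the relative change was smaller than that of Cybb. The log2 fold change of Cyba was 0.97 (SE 0.15, 95% confidence interval 0.61 to 1.34, adjusted p = 0.0047 by limma).

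The ratio of Cybb to Cyba within a sample does not depend on the size of the library. It was 0.0847, 0.123 and 0.126 with vehicle and 0.287, 0.263 and 0.299 with DS-5272, a difference of 1.37 on the log2 scale. Cyba transcripts exceeded Cybb transcripts in all samples, but by less in each DS-5272 sample than in any vehicle sample. An exact two-sided permutation test gave p = 0.1, the smallest value that 3 samples against 3 allow, and the adjusted p over the 3 ratios tested was 0.1 as well.

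The genes of the cytosolic subunits rose as well. Ncf1, the organizer subunit that carries the complex to p22phox, was at 166.5, 196.5 and 215.1 FPKM with vehicle and 333.1, 412.1 and 643.3 FPKM with DS-5272, a log2 fold change of 1.21 (SE 0.25, adjusted p = 0.0096 by limma). Ncf4, which binds phosphatidylinositol 3-phosphate on phagosomes, was at 125.8, 165.3 and 179.7 FPKM with vehicle and 270.7, 338.6 and 457.0 FPKM with DS-5272, a log2 fold change of 1.16 (SE 0.22, adjusted p = 0.0082 by limma). For both genes replicate 1 was the lowest sample of its group and replicate 3 the highest. The exons of Ncf1 share 408 bases with Gtf2ird2 on the opposite strand, and Gtf2ird2 was at 6.26 to 17.2 FPKM.

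Rac2, the GTPase that activates the oxidase in hematopoietic cells, had the smallest difference of the oxidase genes. It was at 269.1, 297.5 and 308.2 FPKM with vehicle and at 359.8, 452.0 and 540.5 FPKM with DS-5272. The lowest treated sample was above the highest vehicle sample. The log2 fold change of 0.61 (SE 0.17, 95% confidence interval 0.21 to 1.01) had an adjusted p of 0.025 by limma. Rac2 no longer passed when vehicle replicate 1, 2 or 3 was left out (adjusted p = 0.0787, 0.0757 and 0.0624 by limma) or DS-5272 replicate 2 (0.0616).

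Rac1, the ubiquitous paralog of Rac2, was at 172.6, 186.9 and 194.0 FPKM with vehicle and at 180.9, 209.1 and 231.7 FPKM with DS-5272. Its groups overlapped and it did not pass the test (log2 fold change 0.16, 95% confidence interval -0.14 to 0.46, adjusted p = 0.32 by limma). The ratio of Rac2 to Rac1 was 1.56, 1.59 and 1.59 with vehicle and 1.99, 2.16 and 2.33 with DS-5272, with p = 0.1 in the exact permutation test and a log2 difference of 0.45. Rac2 transcripts outnumbered those of Rac1 in every sample, and by more in each DS-5272 sample. These paralogs are alike in coding sequence and the assignment of shared reads was not stated, and Rac1 also shares 2309 exonic bases with Daglb on the opposite strand, which was at 14.5 to 27.5 FPKM.

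**Figure D2:**
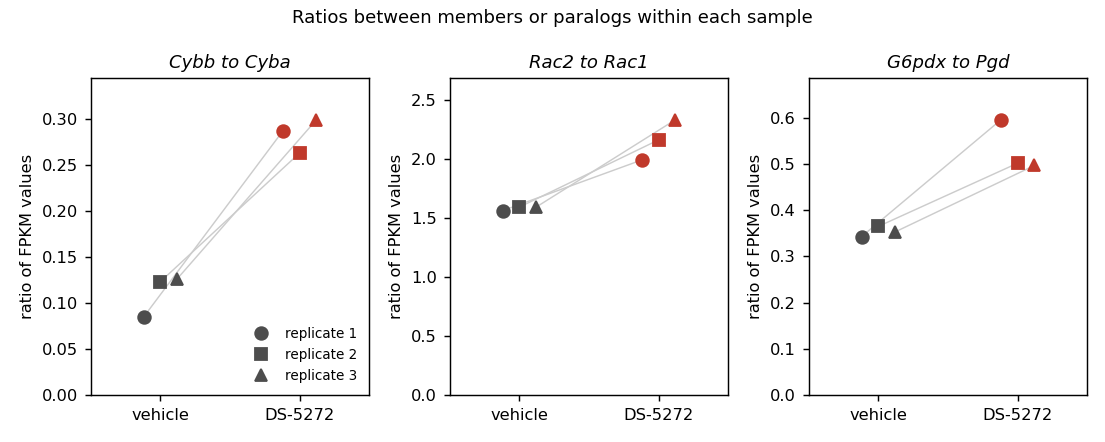
Ratio of FPKM values within each sample for Cybb to Cyba, Rac2 to Rac1 and G6pdx to Pgd, on linear axes from 0, with gray lines joining samples of the same replicate number. All 3 ratios were higher in each DS-5272 sample than in any vehicle sample.

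The oxidase genes taken as a sum gave 1025, 1246 and 1318 FPKM with vehicle and 2098, 2406 and 3070 FPKM with DS-5272. With each sample scaled to the same total (TPM), the sums were 2303, 2533 and 2630 against 4202, 4150 and 4643. The DS-5272 sums stayed above the vehicle sums on both scales, and the spread among the DS-5272 samples was narrower in TPM.

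Among 12 further oxidase partners with an entry, 7 rose, 0 fell and 5 did not pass, with a median log2 fold change of 0.49, where 24.2% of all genes were called higher. The genes that rose were the kinases Prkcd (0.86), Prkcb (0.51) and Pak1 (0.50), which can phosphorylate oxidase components, the GTPase Rap1a (0.53), the Rac exchange factors Prex1 (0.83) and Dock2 (0.53), and Arhgdib (0.49), which holds Rac in the cytosol. Their adjusted p-values by limma were between 0.0054 for Prkcd and 0.045 for Arhgdib. In TPM 4 of the 12 passed, where 15.4% of all genes were called higher and 31.9% lower, and Prkcb, Pak1 and Dock2 were no longer called (adjusted p = 0.078, 0.14 and 0.058 by limma). Without DS-5272 replicate 1, 8 passed, against 26.3% higher and 22.1% lower over all genes. Rap1a, Prkcb, Pak1 and Arhgdib did not pass when vehicle replicate 1, 2 or 3 or DS-5272 replicate 2 was left out, with adjusted p-values from 0.0512 for Rap1a to 0.144 for Arhgdib by limma, and Dock2 did not pass without vehicle replicate 2 (0.0616). Without DS-5272 replicate 3 the same was true of Prkcb, Pak1 and Arhgdib (0.0918, 0.0947 and 0.103). The voltage-gated proton channel Hvcn1, which balances the charge that the oxidase moves, was at 10.37 to 25.88 FPKM with vehicle and 9.597 to 26.09 FPKM with DS-5272 and did not pass (log2 fold change 0.02).

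The other NADPH oxidases were at or near 0. Nox1, Nox3, Nox4, Noxa1 and Duoxa1 were listed at 0 in all samples, and Duox1, Duox2 and Duoxa2 did not exceed 0.05578 FPKM in any sample. Noxo1 was the only gene of the 9 in this list that entered the test, at 0.6461 to 1.309 FPKM, and it did not pass (log2 fold change -0.27, adjusted p = 0.19 by limma). Of the catalytic subunits listed, Cybb was the one with transcripts above this level.

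G6pdx, which encodes the first and rate-limiting enzyme of the oxidative branch, had the largest difference of the enzyme genes. It was at 84.0, 99.7 and 104.6 FPKM with vehicle and at 230.7, 255.0 and 304.8 FPKM with DS-5272. The lowest DS-5272 sample was 2.21-fold above the highest vehicle sample. The log2 fold change was 1.44 (SE 0.14, 95% confidence interval 1.10 to 1.79, adjusted p = 0.0015 by limma), at percentile 95.3 of all genes tested. Its exons share 418 bases with Ikbkg on the opposite strand, which was at 6.35 to 8.48 FPKM, and its retroposed autosomal copy G6pd2 did not exceed 0.04476 FPKM.

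Pgd, the second NADPH-producing step, was at 245.1, 273.4 and 296.1 FPKM with vehicle and at 387.1, 508.2 and 613.6 FPKM with DS-5272. Its groups did not overlap, and its log2 fold change was 0.87 (SE 0.19, 95% confidence interval 0.42 to 1.31, adjusted p = 0.011 by limma). Pgd was more abundant than G6pdx in all samples. The ratio of G6pdx to Pgd was 0.343, 0.365 and 0.353 with vehicle and 0.596, 0.502 and 0.497 with DS-5272, a log2 difference of 0.58 with p = 0.1 in the exact permutation test. The ratios of the vehicle samples were close to one another, and DS-5272 replicate 1 had the highest ratio.

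Pgls, which hydrolyzes the lactone between the 2 dehydrogenase steps, did not rise with them. It was at 103.9, 116.2 and 112.7 FPKM with vehicle and at 72.48, 93.6 and 106.3 FPKM with DS-5272, a log2 fold change of -0.30 (adjusted p = 0.15 by limma). In TPM it was called lower, with a log2 fold change of -0.57 (adjusted p = 0.0048 by limma). Pgls shares 776 exonic bases with Fam129c on the same strand, and Fam129c was at 1.36 to 2.83 FPKM.

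In the non-oxidative branch the 2 enzymes differed. Taldo1 was at 335.1, 355.4 and 391.9 FPKM with vehicle and at 479.8, 570.2 and 692.9 FPKM with DS-5272, a log2 fold change of 0.67 (SE 0.16, 95% confidence interval 0.29 to 1.06, adjusted p = 0.016 by limma). It was the second most abundant of the 9 genes in all 6 samples. Taldo1 did not pass when vehicle replicate 1 or 2 was left out (adjusted p = 0.0545 and 0.062 by limma).

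The joined Tkt entry was at 253.2, 317.1 and 321.7 FPKM with vehicle and at 225.9, 313.4 and 332.1 FPKM with DS-5272. The groups overlapped, and DS-5272 was higher in 1 of 3 same-numbered pairs. The log2 fold change was -0.05 (SE 0.18, 95% confidence interval -0.48 to 0.39, adjusted p = 0.85 by limma), so a rise as large as that of Taldo1 lay outside the interval. With other scalings the entry was called lower, by -0.31 in TPM (adjusted p = 0.0395) and by -0.48 after quantile normalization (adjusted p = 0.0055). Mir3076 shares 1 exonic base with Tkt on the same strand, and how fragments were divided inside the joined entry was not stated.

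**Figure D3:**
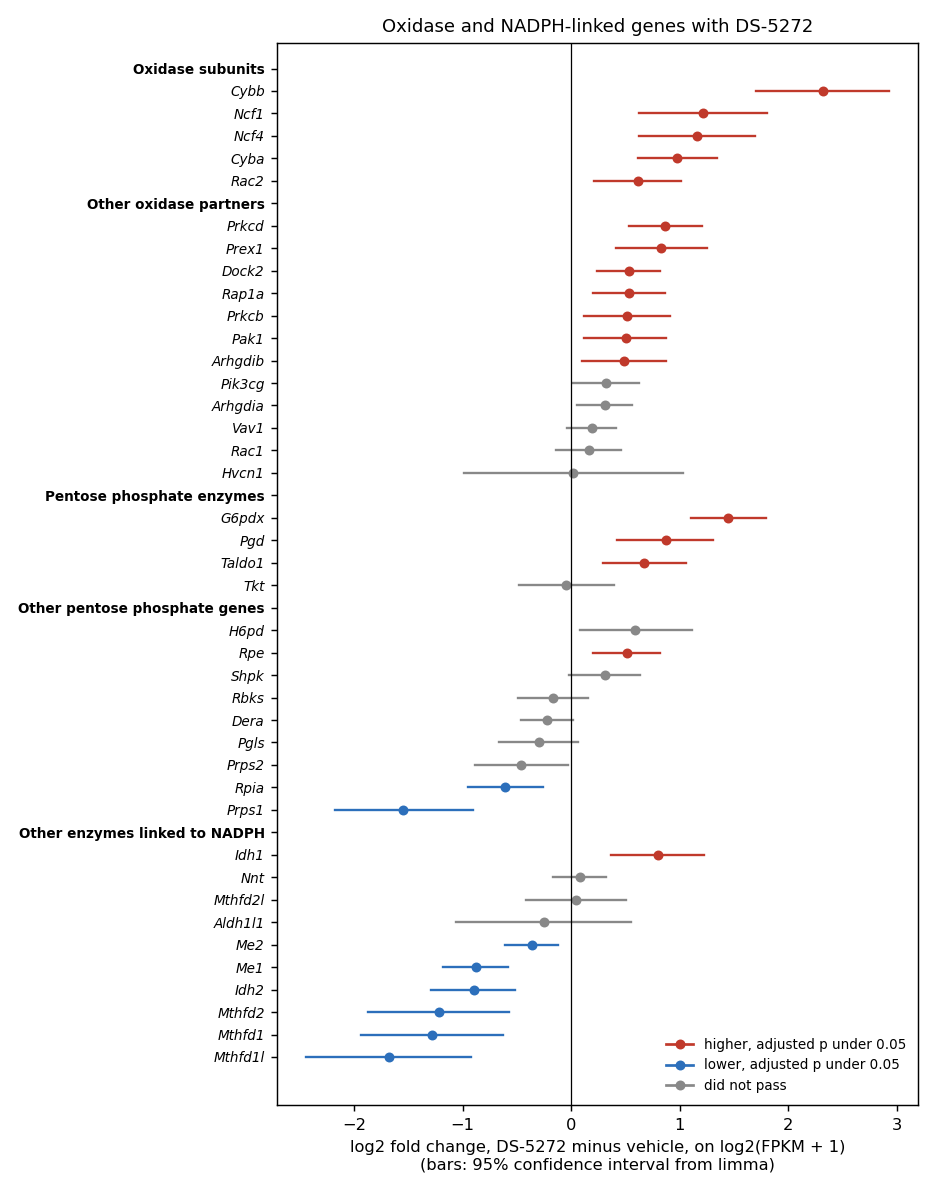
Log2 fold change (DS-5272 minus vehicle, on log2(FPKM + 1)) with its 95% confidence interval for the oxidase genes, their partners, the pentose phosphate genes and other enzymes linked to NADPH. Red and blue mark genes called higher or lower, and gray those that did not pass after adjustment. In TPM, Prkcb, Pak1, Dock2, Rpe and Idh1 were no longer called, and Tkt, Pgls, Dera and Prps2 were called lower.

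Summed, the 2 dehydrogenases were at 329.1, 373.1 and 400.8 FPKM with vehicle and at 617.8, 763.2 and 918.4 FPKM with DS-5272. The sums of Tkt and Taldo1 were 588.3, 672.5 and 713.6 FPKM with vehicle and 705.7, 883.6 and 1025 FPKM with DS-5272. The groups did not overlap for the dehydrogenases, whereas the lowest DS-5272 sum of the non-oxidative enzymes was below the highest vehicle sum. The median over the oxidase genes exceeded the median over the enzymes by 0.39 on the log2 scale, and by 0.29 when the joined Tkt entry was left out. The ranges overlapped, since G6pdx rose by more than 4 of the 5 oxidase genes.

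Of the other pentose phosphate genes, 1 rose, 2 fell and 6 did not pass among 9 tested, with a median log2 fold change of -0.22, against 24.2% higher and 22.0% lower over all genes. Rpe, the epimerase of ribulose 5-phosphate, was higher (0.51, adjusted p = 0.019 by limma), but not in TPM (0.25, adjusted p = 0.2) and not without vehicle replicate 1 or 2 (adjusted p = 0.0622 and 0.0555). Rpia, the isomerase that forms ribose 5-phosphate, was at 37.72, 32.89 and 42.32 FPKM with vehicle and at 22.3, 28.88 and 22.16 FPKM with DS-5272, a log2 fold change of -0.61 (adjusted p = 0.016 by limma). Prps1, which turns ribose 5-phosphate into the precursor of nucleotides, fell further, with a log2 fold change of -1.55 (adjusted p = 0.0059 by limma). G6pdx and Pgd thus rose where Rpia and Prps1 fell. In TPM 5 of the 9 were called lower and 0 higher, on a scale on which 31.9% of all genes were called lower and 15.4% higher. H6pd, the dehydrogenase of the endoplasmic reticulum, had a log2 fold change of 0.59 that did not pass (adjusted p = 0.061), and passed with the replicate number as a block (adjusted p = 0.004). Rpia did not pass without vehicle replicate 3 (adjusted p = 0.0617 by limma).

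Other enzymes linked to NADPH supply were listed as well. Of 10 tested, 1 rose, 6 fell and 3 did not pass, with a median log2 fold change of -0.62, against 24.2% higher and 22.0% lower over all genes. The cytosolic isocitrate dehydrogenase Idh1 rose by 0.80 (adjusted p = 0.013 by limma), but did not pass in TPM (0.53, adjusted p = 0.064) or when vehicle replicate 2 was left out (0.75, adjusted p = 0.0522). The largest falls were in the folate enzymes Mthfd1l (-1.68), Mthfd1 (-1.28) and Mthfd2 (-1.22). Mthfd1l is a synthetase that makes no NADPH itself, and without it 1 of 9 rose and 5 fell, with a median of -0.36. Mthfd2 and Me2 are known to use mainly NAD. The mitochondrial isocitrate dehydrogenase Idh2 and the malic enzymes Me1 and Me2 had log2 fold changes of -0.90, -0.88 and -0.36. In TPM the 6 falls were still called.

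At the branch point of glucose 6-phosphate, 5 of 14 genes rose and 2 fell, with a median log2 fold change of 0.20. Over all genes, 24.2% were called higher and 22.0% lower. With the replicate number as a block 7 rose and 3 fell, where 30.3% of all genes were called higher and 24.9% lower. The largest rises were those of Pfkfb4 (0.98), which sets fructose 2,6-bisphosphate, the hexokinase Hk3 (0.83) and Pfkfb2 (0.53), and the falls were those of the phosphatase G6pc3 (-0.81) and of Pfkfb1 (-0.74). In TPM 2 of the 14 were called higher and 3 lower, where 15.4% of all genes were called higher and 31.9% lower. Pfkfb2 was not called in TPM (adjusted p = 0.172 by limma). Pfkfb2 also missed the threshold when any 1 sample except DS-5272 replicate 2 was left out, with adjusted p-values of 0.0534 to 0.1. Tigar, a p53 target that lowers fructose 2,6-bisphosphate, was at 11.74 to 12.64 FPKM with vehicle and at 11.72 to 15.66 FPKM with DS-5272 and did not pass (log2 fold change 0.14, adjusted p = 0.39 by limma).

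Among genes that handle superoxide and peroxide, 3 of 15 rose and 4 fell, with a median of 0.08, and these shares were near those over all genes (24.2% and 22.0%). Peroxiredoxin 5 (Prdx5) rose by 1.41, glutathione reductase (Gsr), which itself consumes NADPH, by 0.79, and glutathione peroxidase 4 (Gpx4) by 0.59. Mpo, the granule peroxidase that uses the hydrogen peroxide derived from the oxidase, was at 217.9, 140.4 and 325.1 FPKM with vehicle and at 3.769, 12.19 and 3.253 FPKM with DS-5272, a log2 fold change of -5.07 (adjusted p = 0.0014 by limma). Prdx4 (-2.12) and Prdx1 (-0.85) had the next largest falls. Mpo thus fell in the samples in which Cybb rose. With the replicate number as a block, 5 of the 15 were called higher and 5 lower, against 30.3% and 24.9% of all genes. Gsr did not pass when vehicle replicate 1, 2 or 3 was left out (adjusted p = 0.0903, 0.0736 and 0.055 by limma), and Gpx4 did not pass without vehicle replicate 3 (0.052) or after quantile normalization (0.148).

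**Figure D4:**
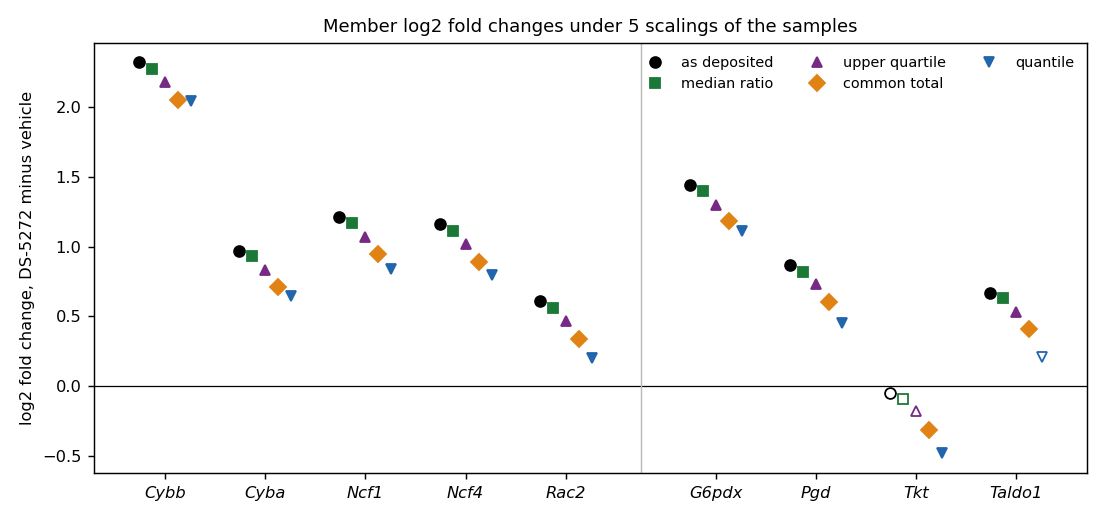
Log2 fold change of the 9 genes under 5 scalings of the samples, with filled symbols where the adjusted p was under 0.05 and open symbols where it was not. The 5 oxidase genes, G6pdx and Pgd were called higher under all 5, Taldo1 was not called after quantile normalization, and Tkt was called lower in TPM and after quantile normalization.

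The sums of FPKM were higher in the DS-5272 samples, so the scaling matters for small differences. Setting all samples to the same total moved the median of all genes by -0.24 on the log2 scale, to -0.19. In TPM the log2 fold changes were 2.05 for Cybb, 0.71 for Cyba, 0.95 for Ncf1, 0.89 for Ncf4 and 0.34 for Rac2, and 1.18 for G6pdx, 0.60 for Pgd and 0.41 for Taldo1. These 8 genes were called higher on this scale too. In TPM 1713 genes were called higher and 3555 lower, against 2697 and 2451 for the values as deposited.

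Factors known to act on oxidase gene promoters were read in the same table. Spi1, which encodes PU.1, was at 227.5, 264.1 and 271.9 FPKM with vehicle and at 368.8, 405.0 and 518.2 FPKM with DS-5272, a log2 fold change of 0.75 (adjusted p = 0.011 by limma). Irf8 rose by 1.24 and Irf1 by 1.29 (adjusted p = 0.0032 and 0.01 by limma), while Elf1 (0.03) and Cebpe (0.06) did not pass. Of 5 factors tested, 3 rose and 0 fell, where 24.2% of all genes were called higher and 22.0% lower. Hoxa9 and Hoxa10, also in this list, shared a joined entry and were left out, so the count does not cover them.

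Promoters of the members, whether or not they were called, were read to show where recognition letters of transcription factors stand. The letters were those of some of the factors above and of others. Windows of 250 bases before to 50 bases after the start were taken from RefSeq (GRCm38.p6) and were found for 7 of the 9 genes, all but Ncf4 and Rac2. Both strands were searched for GAGGAA (the core of PU.1 sites), GAAANNGAA (interferon regulatory factors, IRF), TGACNNNGC (the core of the antioxidant response element) and CACGTG (the E-box). Of 32851 promoters, 23.3%, 7.13%, 10.2% and 6.02% held these before the start. Cybb held 3 IRF matches there and Ncf1 held 1, and G6pdx held 1 antioxidant response element core. The windows of Cyba, Tkt and Taldo1 held no match, and Cybb and 1 of the 2 Pgd starts held 1 match each past the start, for GAGGAA and TGACNNNGC. The matches before the start are shown 5′ to 3′ on the strand of the gene, with the match in capitals; a match to the opposite strand reads as its reverse complement.
Cybb, chrX:9469463-9469511, minus strand, 167 to 159 bases before the start: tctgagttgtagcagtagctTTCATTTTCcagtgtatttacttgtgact
Cybb, chrX:9469419-9469467, minus strand, 123 to 115 bases before the start: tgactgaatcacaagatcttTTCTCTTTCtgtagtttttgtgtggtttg
Cybb, chrX:9469325-9469373, minus strand, 29 to 21 bases before the start: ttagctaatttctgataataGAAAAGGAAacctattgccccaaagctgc
Ncf1, chr5:134229679-134229727, minus strand, 82 to 74 bases before the start: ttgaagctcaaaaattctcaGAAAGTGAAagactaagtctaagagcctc
G6pdx, chrX:74428909-74428957, minus strand, 57 to 49 bases before the start: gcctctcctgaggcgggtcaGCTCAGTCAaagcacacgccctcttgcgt

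These matches describe letters in a window and do not show binding. The Cybb start used by RefSeq lies inside the gene as GENCODE draws it (chrX:9435252-9487771, minus strand), which has a start further upstream. The Cybb window also had fewer G and C bases (34.0%) than the median promoter (52.4%), with 1 CpG before the start, and the G6pdx window had 61.2% and 15 CpG.

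Genes whose profile over the 6 samples lay close to that of Cybb, by the mean absolute difference of centered log2(FPKM + 1) values among the 6758 genes that averaged 10 FPKM or more, were 1100001G20Rik (0.126) and the receptor Tlr2 (0.148). Their log2 fold changes were 2.17 and 2.41. Closest to G6pdx were Sirpa (0.0509), an inhibitory receptor of myeloid cells, Tnfaip2 (0.0534) and Cstb (0.0543), with log2 fold changes of 1.53, 1.34 and 1.41. The profiles lay closer around G6pdx than around Cybb, and the likeness is a description of these 6 samples.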

How the data were processed

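The authors trimmed reads with cutadapt 1.8.1 and the FASTX toolkit, checked them with FastQC, aligned paired-end reads from strand-specific libraries to GRCm38 with TopHat2 2.1.1 and deposited FPKM values per gene from Cufflinks 2.2.1. Whether fragments were assigned by strand was not given in the sources used here. The table had 26632 lines, of which 433 joined several genes. Of the listed genes, only Tkt was read from a joined entry. Of the 26082 names, 435 stood on several lines and were summed.

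Samples were grouped by the treatment in their labels. Genes averaging 1 FPKM or more over the samples were compared on log2(FPKM + 1) with limma 3.58.1 (R 4.3.3; empirical Bayes with a mean-variance trend, two-sided, Benjamini-Hochberg, threshold 0.05), which was tested on simulated data. Python 3.11.15 with scipy 1.17.1 gave the exact permutation tests of ratios. A pseudocount understates the change of low genes.

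The genes and lists were chosen with earlier results of these data known. Named were all members, every gene passing in the lists of oxidase partners and pentose phosphate genes (plus Rac1, Pgls and G6pd2), up to 3 largest rises and falls in other lists, and the 3 nearest profiles of Cybb and G6pdx. Other genes were chosen after their values were seen. These are Hvcn1, H6pd, Tigar, Ptprc, Meis1, Noxo1, Idh2, Me1, Me2, Elf1, Cebpe, Dera, Prps2, Marco and the NADPH oxidase genes at or near 0. They also include the T, B and NK cell markers named other than Lck. Genes that share exonic bases with a named gene were given for that overlap. A few further genes covered by this rule are not reported here. Spi1 and Tigar were listed under older symbols. Deviations from the group means correlated at r = 0.66, 0.21 and 0.43 for the same replicate number, against -0.58 to 0.34 for different numbers. These ranges overlap, and the labels do not say that the numbers pair the samples. The numbers were used in the replicate block and for the same-numbered pairs. The main fit and the permutation tests took the samples as unpaired.

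The alternatives were 4 other scalings, a smaller pseudocount (0.1), all genes unfiltered, a stricter filter (5 FPKM on average), a replicate block, no trend, the largest line instead of the sum, and leaving out each sample. The block in TPM and with median-ratio scaling, and leaving out the joined Tkt entry or Mthfd1l, were chosen after seeing the data.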

Additional observations from a re-analysis of the deposited data

How the results depend on the processing

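No gene called as deposited changed direction under the alternatives run for it, which were 17 or 18 for each gene followed and 7 for the ratios. Genes that were not called did turn, with Rac1 from 0.16 to as low as -0.18 and Tkt from -0.05 to as high as 0.13. The genes Hvcn1, H6pd, Tigar, Idh2, Me1, Me2, Ptprc, Meis1, Noxo1, Elf1, Cebpe, Dera and Prps2 were not followed through all alternatives. The same holds for Cd79b and for the genes with the nearest profiles. Under all 18, Cybb, Cyba, Ncf1, Ncf4, G6pdx and Pgd were called higher, with log2 fold changes of 2.03 to 2.48, 0.65 to 1.04, 0.84 to 1.42, 0.80 to 1.34, 1.11 to 1.53 and 0.45 to 1.04. Rac2 (0.20 to 0.76 over all, lowest after quantile normalization with adjusted p = 0.0415 by limma, and 0.47 to 0.76 when 1 sample was left out) and Taldo1 (0.54 to 0.80) lost their call without some samples, and Taldo1 also after quantile normalization (0.21, adjusted p = 0.0665 by limma). Tkt was called lower in TPM (-0.31), after quantile normalization (-0.48) and in TPM with the replicate block (-0.31). In the fit with the replicate block the values as deposited gave the same log2 fold changes and changed no call among the members. The adjusted p-values by limma were 0.00062 for Cybb and 0.67 for Tkt. The block raised the genes called higher to 3367 and those called lower to 2771.

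The oxidase median was 0.80 after quantile normalization. The enzyme median was 0.50 in TPM, with or without the block, and 0.33 after quantile normalization. Their difference ranged from 0.30 to 0.43 when 1 sample was left out and was 0.29 without the joined Tkt entry. Genes called higher fell to 1713 in TPM and ranged from 1654 to 2920 without 1 sample, with the lowest count without vehicle replicate 2. Genes called lower ranged from 1404 (without vehicle replicate 2; 1489 without vehicle replicate 3) to 2446 without 1 sample, and reached 4526 in TPM with the block. More genes were called higher than lower as deposited (2697 and 2451), but fewer in TPM (1713 and 3555), after quantile normalization (2418 and 3135) and with the upper quartile set equal (2233 and 3179). Of 772 values of companion genes under alternatives, 63 lost their call and 5 gained one. Read counts were not used here, so the counting error of each value is unknown.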
